A study of Mus musculus with 10 samples.

Results

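The Hox genes encode the transcription factors that give cells their position along the body axis, and they were followed here in osteoblasts, the bone-forming cells. Every probe set whose platform gene symbol begins with Hoxa, Hoxb, Hoxc or Hoxd and a digit was taken, which gave 51 of the 45101 probe sets on the array. Of these, 48 carry the name of 1 gene and cover 33 Hox genes, and 3 list 2 neighbouring Hox genes. Together they name 35 of the 19324 genes in the platform annotation. A further 5 probe sets for antisense transcripts were left out. The rule uses symbols alone and no measured value.

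Hox genes lie in 4 clusters, Hoxa to Hoxd, and genes at matching places in the clusters form numbered paralogous groups. Low-numbered groups are used from the hindbrain and neck downward, and the highest-numbered groups pattern the hind end of the trunk and the outer parts of the limbs. Bone cells of the trunk and limbs carry a Hox pattern of their origin, whereas most bones of the face come from neural crest cells that use no Hox genes.

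Total RNA was measured on 10 arrays from osteoblasts of mice 2 to 3 days old, on a strain background spelled C5BL6 in the labels, with sex entered as undetermined. The groups were 3 samples with β-catenin constitutively expressed in osteoblasts (β-catenin-labelled), 3 with FoxO1 deleted in osteoblasts (FoxO1-labelled) and 4 wild types. β-catenin is the nuclear messenger of Wnt signalling, and FoxO1 switches genes in answer to insulin and oxidative stress. The promoter or Cre line behind the osteoblast-specific change, the bones sampled, and any pooling or culture are not given in the sources used here, so the p-values speak of differences among these samples alone, and their spread may be technical.

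The altered genes themselves did not pass the test between the groups. Foxo1 probe set 1416981_at read 9.12, 9.08 and 9.21 in FoxO1-labelled arrays, against 9.05, 9.0, 9.15 and 9.16 in wild types, a log2 difference of 0.05 ± 0.10 (SE). None of the 3 Foxo1 probe sets tested differed between these groups, with adjusted p from 0.721 to 0.929 by limma. Ctnnb1, the gene of β-catenin, had 3 probe sets, none of which passed between β-catenin-labelled and wild-type arrays (adjusted p 0.0946 to 0.946). Its probe set 1450008_a_at read 12.14, 11.84 and 12.02 in β-catenin-labelled, 12.19, 12.18 and 12.15 in FoxO1-labelled and 12.30, 12.35, 12.33 and 12.37 in wild-type arrays. The 3 groups did not overlap there, with the β-catenin-labelled arrays lowest, at -0.34 ± 0.08 against wild type. The deleted or altered part of either gene is not given, so a probe set outside it checks nothing, and groups are called by their labels throughout. Osteoblast markers were high in every array, with all 8 measured genes above background. So were all 8 skeletal muscle, 7 fibroblast, 7 leukocyte and macrophage and 6 endothelial markers, the muscle gene Acta1 at 14.26 to 15.16, so the cell type behind a Hox signal cannot be told apart. Skeletal muscle markers varied within each group, averaging 10.9 to 12.6 in β-catenin-labelled, 11.3 to 12.4 in FoxO1-labelled and 11.1 to 12.3 in wild-type arrays. Chondrocyte markers (8 of 8 above background in every array, 0 of 8 past the test) averaged 10.57 to 11.01 in β-catenin-labelled, 10.52 to 11.95 in FoxO1-labelled and 9.85 to 10.38 in wild-type arrays. Erythroid markers (3 of 7 above background in every array, 0 past the test) averaged 5.21 to 6.38 in β-catenin-labelled, 5.40 to 7.76 in FoxO1-labelled and 7.14 to 8.42 in wild-type arrays. Of the 5 tested, 0 had a higher mean than wild type in either labelled group. The median difference was -2.07 with the β-catenin label and -1.07 with the FoxO1 label, with 4 and 3 at an unadjusted p under 0.05. Xist was high, at 14.05 to 14.43, in wild type 3 and 4 and FoxO1-labelled 2 and 3, and at most 8.96 in the other arrays. The Y-linked gene Eif2s3y read 2.84 to 4.34 in those with high Xist and 10.78 to 11.29 in the others. Kdm5d and Uty, also Y-linked, split the arrays the same way. By these genes all β-catenin-labelled arrays held male RNA, while FoxO1-labelled and wild-type arrays were of mixed sex. Sex was thus not balanced between the groups. Wild type 1 and 2 correlated at 0.9478, and wild type 3 and 4 at 0.9465, against 0.9385 to 0.9415 across these pairs.

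Signal was taken as above background when it exceeded the 95th percentile of 82 probe sets for olfactory, vomeronasal, trace amine and taste receptors in the same array. These limits lay between 5.86 and 6.52 on the log2 scale, and the table's median was 7.15. Only 3 of the 51 Hox probe sets exceeded the limit in all 10 arrays, 12 did so in some arrays and 36 in none. Among probe sets naming 1 gene, the share above background in all arrays was 6.25% for Hox and 58.1% for the whole array. The share never above it was 21.5% on the whole array, against 33 of the 48 Hox probe sets. In bulk RNA, few cells with a transcript and little transcript per cell cannot be told apart.

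**Figure D1:**
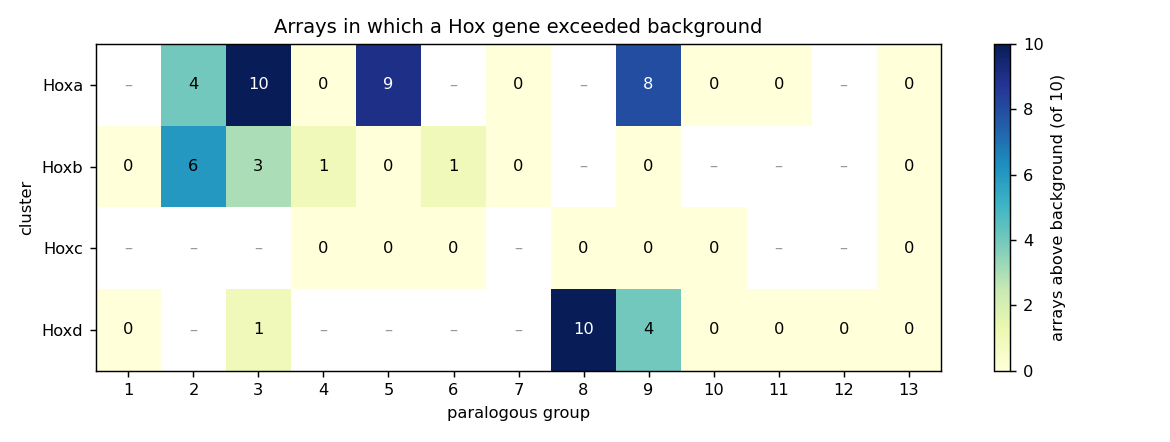
Number of the 10 arrays in which a Hox gene exceeded background, by cluster (rows) and paralogous group (columns); each cell takes the gene's probe set with the largest number, and a dash means that no probe set naming that gene alone was listed. Hoxd8 and Hoxa3 reach 10 arrays, and every measured cell of the Hoxc cluster and of groups 10 to 13 is at 0.

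The grid of arrays above background shows Hoxd8 and Hoxa3 above it in all 10, Hoxa5 in 9, Hoxa9 in 8 and Hoxb2 in 6. Every other gene was above it in 4 arrays or fewer. As the limit is a 95th percentile, some receptor probe sets exceed it in each array by definition. A crossing in few arrays can thus be background. Of the 16 probe sets of groups 1 to 4, 1 was above background in all arrays and 8 in some. Of the 15 of groups 5 to 8, 2 were above it in all arrays and 2 in some. Group 9 had 2 of 5 above it in some arrays. None of the 12 probe sets of groups 10 to 13 exceeded background in any array. By cluster, all 11 Hoxc probe sets stayed below it, as did 10 of 16 for Hoxa, 6 of 11 for Hoxb and 6 of 10 for Hoxd. The 3 probe sets that list 2 genes also stayed below it.

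The promoter windows of 3 genes are shown because they span the range of the data: Hoxd8 and Hoxa3 were above background in every array, and Hoxd10, which lies in the cluster of Hoxd8, was above background in no array. They are RefSeq sequences of build GRCm38.p6, from 250 bases before to 50 after the gene's start, at chr2:74704365-74704664 on the plus strand for Hoxd8, chr6:52213018-52213317 on the minus strand for Hoxa3 and chr2:74691641-74691940 on the plus strand for Hoxd10. Capitals mark CTTTGAT or CTTTGAA, the letters favoured by the TCF/LEF partners of β-catenin, on the strand printed or its reverse.
Hoxd8: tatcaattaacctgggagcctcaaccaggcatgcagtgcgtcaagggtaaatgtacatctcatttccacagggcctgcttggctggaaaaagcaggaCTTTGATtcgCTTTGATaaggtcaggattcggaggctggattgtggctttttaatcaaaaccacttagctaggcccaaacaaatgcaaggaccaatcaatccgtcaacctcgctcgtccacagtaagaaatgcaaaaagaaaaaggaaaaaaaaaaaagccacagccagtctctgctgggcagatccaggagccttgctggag
Hoxa3: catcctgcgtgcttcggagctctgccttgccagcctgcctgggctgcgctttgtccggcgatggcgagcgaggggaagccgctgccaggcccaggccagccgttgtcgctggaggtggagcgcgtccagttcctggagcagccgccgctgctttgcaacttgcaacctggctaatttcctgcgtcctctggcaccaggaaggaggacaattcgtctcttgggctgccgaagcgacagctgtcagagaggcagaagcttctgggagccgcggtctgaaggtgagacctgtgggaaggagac
Hoxd10: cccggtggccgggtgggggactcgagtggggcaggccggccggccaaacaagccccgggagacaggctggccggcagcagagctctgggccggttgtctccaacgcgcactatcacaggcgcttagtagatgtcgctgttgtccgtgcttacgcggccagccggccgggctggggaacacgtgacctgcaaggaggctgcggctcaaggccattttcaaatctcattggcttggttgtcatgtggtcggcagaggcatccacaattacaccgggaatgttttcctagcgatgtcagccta
The Hoxd8 window holds these letters in 2 places, beginning 153 and 143 bases before the start, and the other windows printed hold none. Searched on both strands, they occurred in 3 of 21 Hox windows, which cover 19 of the 33 genes, and in 8.65% of all 32851 windows. Hoxa11 and Hoxd12 are the other two genes with them. Windows with 2 or more such matches made up 0.508% of all windows. The FoxO letters GTAAACA were in 0 of 21 Hox windows and 3.65% of all. The letters TGATNNAT, bound by Hox proteins with Pbx, were in 3 of 21 Hox windows (Hoxa2, Hoxb1 and Hoxd11) and 8.85% of all. A match here is a description of the letters and says nothing of binding.

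Hoxd8, a trunk and proximal limb Hox gene, was the single Hox gene with a probe set above the table's median in every array. Probe set 1431099_at read 7.99, 8.25 and 8.08 in β-catenin-labelled arrays, 8.65, 8.38 and 8.11 in FoxO1-labelled arrays and 8.34, 7.87, 7.86 and 8.17 in wild types. The lowest value was 7.86, and the 3 groups overlapped. Group means were 8.11 ± 0.13 (SD, n = 3), 8.38 ± 0.27 (n = 3) and 8.06 ± 0.24 (n = 4) in the same order. The β-catenin-labelled arrays differed from wild type by 0.05 ± 0.17 on the log2 scale (95% interval -0.33 to 0.42, limma adjusted p = 0.952). For FoxO1-labelled arrays the difference from wild type was 0.32 ± 0.17 (interval -0.05 to 0.69, adjusted p = 0.669). Between β-catenin-labelled and FoxO1-labelled arrays it was -0.27 ± 0.18 (interval -0.67 to 0.13, adjusted p = 0.811). No interval reached a change of 1 on the log2 scale, that is 2-fold, in either direction.

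The second Hoxd8 probe set, 1433638_s_at, read 6.66, 7.54 and 6.89 in β-catenin-labelled arrays, 7.19, 7.62 and 6.95 in FoxO1-labelled arrays and 6.36, 7.07, 6.23 and 7.73 in wild types. It too was above background in every array, with wild types spread more widely than either other group. Its differences from wild type were 0.18 ± 0.37 (interval -0.62 to 0.99) with the β-catenin label and 0.41 ± 0.37 (interval -0.40 to 1.21) with the FoxO1 label, at adjusted p of 0.909 and 0.815. β-catenin-labelled minus FoxO1-labelled arrays gave -0.22 ± 0.39 (adjusted p = 0.957). Names ending in _s_at or _x_at mark probe sets that can match more than 1 related transcript.

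Hoxa3, which patterns the neck, throat and pharyngeal glands, was the other gene above background throughout. Probe set 1452421_at read 7.30, 6.91 and 7.56 in β-catenin-labelled arrays, 7.24, 6.97 and 6.14 in FoxO1-labelled arrays and 6.82, 6.87, 7.42 and 6.86 in wild types. The groups overlapped, and FoxO1-labelled 3 was the lowest array. β-catenin-labelled arrays exceeded wild type by 0.26 ± 0.29 (interval -0.38 to 0.91, adjusted p = 0.812). FoxO1-labelled arrays gave -0.21 ± 0.29 against wild type (interval -0.85 to 0.43, adjusted p = 0.891), and without FoxO1-labelled 3 the value turned to 0.11. β-catenin-labelled minus FoxO1-labelled arrays gave 0.47 ± 0.31 (adjusted p = 0.803). The other Hoxa3 probe sets were above background in 2, 1 and 0 arrays, so the detection rests on 1 of 4 probe sets. With the 99th percentile of the receptor probe sets as the limit, 1452421_at was above it in 8 arrays, and it exceeded the table's median in 4.

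**Figure D2:**
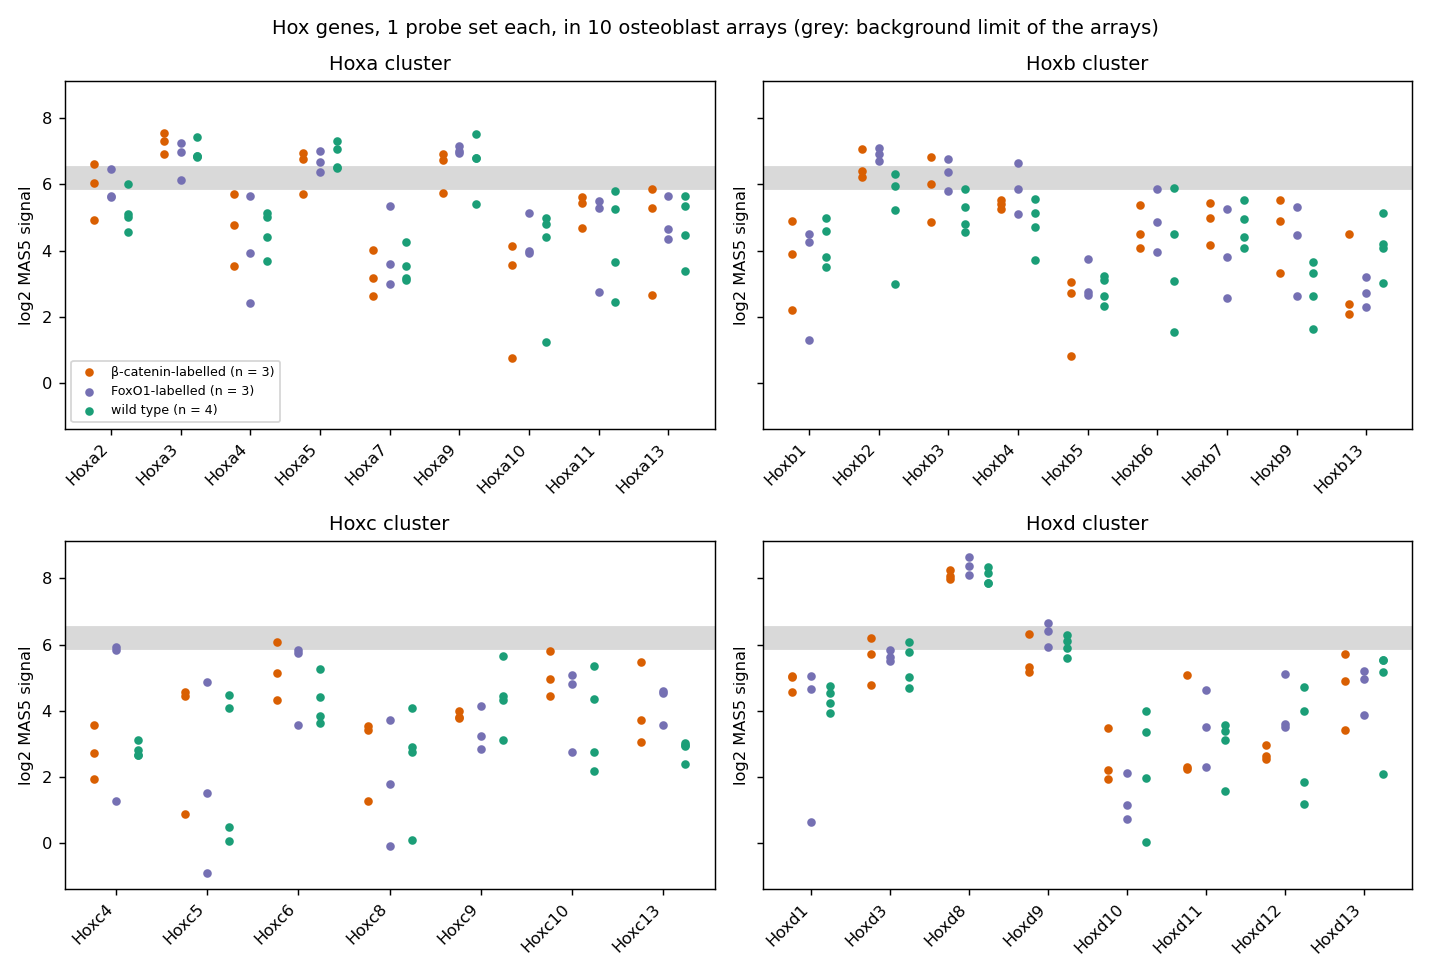
Log2 MAS5 signal of 33 Hox genes, 1 probe set each (the one with the highest mean), in the 10 arrays, by cluster; points are arrays coloured by group, and the grey band is the range of the arrays' background limits, 5.86 to 6.52. Hoxd8 lies wholly above the band and Hoxa3 above it or within it, while Hoxc genes lie below or within it.

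The plot of signal by cluster shows a second tier of genes that crossed the band in some arrays. Hoxa5, which acts in the neck, lung and upper trunk, read 5.72, 6.78 and 6.95 in β-catenin-labelled arrays, 6.39, 7.0 and 6.68 in FoxO1-labelled arrays and 6.51, 6.53, 7.30 and 7.06 in wild types (1443803_x_at). It was above background in 9 of 10 arrays, but the other Hoxa5 probe set was so in none. Hoxa9, a trunk and limb gene also used in blood progenitors, read 6.75, 6.92 and 5.74 in β-catenin-labelled, 7.0, 7.17 and 6.94 in FoxO1-labelled and 6.79, 7.54, 5.42 and 6.81 in wild-type arrays (1421579_at). It exceeded background in 8 arrays, and its second probe set in none. Blood stem and progenitor markers (3 of 8 above background in every array, 5 in some) averaged 6.59 to 7.44 in β-catenin-labelled, 7.08 to 8.01 in FoxO1-labelled and 7.56 to 8.42 in wild-type arrays, and their part in the Hoxa9 signal was not tested.

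Hoxb2, a gene of the hindbrain and its crest, crossed the limit in 6 arrays. It read 6.22, 6.40 and 7.08 in β-catenin-labelled arrays, 7.09, 6.70 and 6.92 in FoxO1-labelled arrays and 2.99, 5.24, 6.32 and 5.95 in wild types (1449397_at). It exceeded background in 2 of 3 β-catenin-labelled, 3 of 3 FoxO1-labelled and 1 of 4 wild-type arrays, and wild type 1 was far below the rest. Hoxb2 did not reach the signal filter used for testing, a third-highest value above the table's median. As the plot of Hox probe sets by group shows, its wild types spread widely. Without that filter its difference from wild type was 1.44 ± 0.64 in β-catenin-labelled arrays (limma unadjusted p = 0.0443, adjusted p = 0.538) and 1.78 ± 0.64 in FoxO1-labelled arrays (unadjusted p = 0.0169, adjusted p = 0.639). FoxO1-labelled and wild-type arrays did not overlap, and β-catenin-labelled and wild-type arrays did. Neither difference passed, and the means of wild types are set in part by values below background.

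Hoxa2, which specifies the second pharyngeal arch, read 4.92, 6.04 and 6.61 in β-catenin-labelled, 6.48, 5.61 and 5.65 in FoxO1-labelled and 5.02, 4.55, 6.0 and 5.10 in wild-type arrays. Hoxb3 read 4.86, 6.0 and 6.84 in β-catenin-labelled, 6.78, 6.38 and 5.81 in FoxO1-labelled and 4.79, 5.33, 4.56 and 5.87 in wild-type arrays (1456229_at). Hoxd9 read 5.31, 6.32 and 5.18, 6.66, 6.40 and 5.93, and 5.91, 6.11, 6.28 and 5.60 in the same 3 groups. They were above background in 4, 3 and 4 arrays, with overlapping groups. Hoxb4, Hoxb6 and Hoxd3 exceeded it in 1 array each. Hoxb6 did so narrowly in wild type 3 (5.88 against a limit of 5.858), and Hoxd3 in β-catenin-labelled 3 (6.19 against 6.172).

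**Figure D3:**
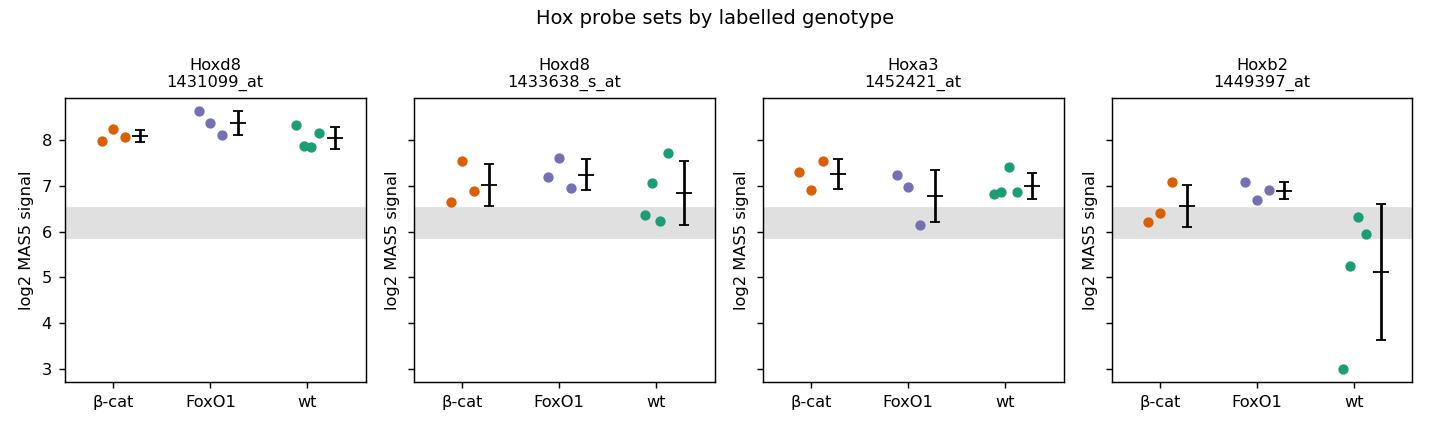
Log2 MAS5 signal of selected Hox probe sets by group (β-catenin-labelled, FoxO1-labelled, wild type); points are arrays, bars the group mean with SD, and the grey band spans the background limits of 5.86 to 6.52. The groups overlap for Hoxd8 and Hoxa3, and the FoxO1-labelled arrays of Hoxb2 lie above all 4 wild types.

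The Hoxc cluster and the high groups were at background. Hoxc6 read 4.32, 5.13 and 6.09 in β-catenin-labelled, 5.85, 5.74 and 3.57 in FoxO1-labelled and 5.27, 3.64, 3.83 and 4.41 in wild-type arrays (1427362_x_at), below each array's limit. Hoxa10, Hoxc10 and Hoxd10, genes of the lumbar spine and upper limb segment, averaged 3.69 (0.74 to 5.14), 4.25 (2.18 to 5.79) and 2.09 (0.03 to 3.99) over the 10 arrays, with the range of arrays in brackets. The forearm and sacral genes Hoxa11 and Hoxd11 averaged 4.64 (2.43 to 5.79) and 3.17 (1.56 to 5.08), and Hoxd12 averaged 3.21 (1.18 to 5.12). Of the genes of hand, foot and tail, Hoxa13 averaged 4.73 (2.66 to 5.86), Hoxb13 3.36 (2.07 to 5.15), Hoxc13 3.62 (2.40 to 5.46) and Hoxd13 4.64 (2.07 to 5.72). These are separate probe sets, so their levels cannot be ranked against each other. A probe set below the limit does not bound its transcript either. Some Hoxa3 and Hoxa5 probe sets stayed below the limit in arrays where another probe set of the same gene exceeded it.

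No Hox probe set passed in any of the 3 comparisons. limma called 0 of the 3 tested Hox probe sets (both of Hoxd8 and that of Hoxa3), and 0 had an unadjusted p under 0.05 in any comparison. Over all 20127 probe sets tested, 0.507% passed between β-catenin-labelled and wild-type arrays, 0.0149% between FoxO1-labelled and wild-type arrays, and 0.442% between β-catenin-labelled and FoxO1-labelled arrays. With the filter lifted, 0 of 48 Hox probe sets passed. Those with an unadjusted p under 0.05 then numbered 1, 3 and 2 in the 3 comparisons, against 9.01%, 7% and 6.78% of all probe sets. They were Hoxb2 in the first, Hoxa4 (1427354_at), Hoxb2 and Hoxb3 (1456229_at) in the second, and Hoxc5 (1450832_at) and Hoxd13 (1440626_at) in the third.

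Differences of the 48 unfiltered Hox probe sets leaned upward against wild type, mostly among values below background. In β-catenin-labelled arrays 32 of 48 were higher than in wild type, with a median log2 difference of 0.21, against 49.6% higher and a median of -0.0025 over all probe sets. In FoxO1-labelled arrays 32 of 48 were higher, with a median of 0.34, against 46.5% and -0.0208. Both comparisons share the wild-type arrays, and 11 of the 33 genes have more than 1 probe set, so these counts are not of independent values. No direction for a Hox gene can be read from them. The receptor probe sets that set the background were higher in 42 and 38 of 82, with medians of 0.03 and -0.09. Between β-catenin-labelled and FoxO1-labelled arrays 23 of 48 Hox probe sets were higher, with a median of -0.03. The median Hox value per array was 4.86, 4.51 and 4.51 in β-catenin-labelled, 5.07, 4.54 and 4.36 in FoxO1-labelled and 3.70, 4.36, 4.28 and 4.51 in wild-type arrays, so all lay below the background limits and wild type 1 lay lowest.

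Hox probe sets that separated the groups without overlap were counted beside the share over all 34958 probe sets with 1 gene. Between β-catenin-labelled and wild-type arrays 1 of 51 was wholly higher (Hoxc13) and 0 wholly lower, against 5.2% and 5.33% of all probe sets. Between FoxO1-labelled and wild-type arrays 2 of 51 were wholly higher (Hoxc13 and Hoxb2) and 0 lower, against 3.48% and 4.57%. Between β-catenin-labelled and FoxO1-labelled arrays 1 was wholly higher (Hoxc5) and 2 wholly lower (Hoxa9 and Hoxd12), against 5.57% and 4.05%. Hoxc13, Hoxc5 and Hoxd12 were below background in every array.

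Transcripts of proteins that work with Hox factors were mostly above background. Of 8 measured cofactors (Pbx, Meis and Pknox genes, whose products bind DNA beside Hox proteins), 7 were above background in all arrays, and only Pbx4 was in none. Meis1 (1450992_a_at) read 8.25, 7.44 and 7.48 in β-catenin-labelled, 7.90, 8.21 and 7.94 in FoxO1-labelled and 7.62, 7.53, 7.64 and 7.76 in wild-type arrays. Meis2 (1457632_s_at) read 9.30, 8.89 and 8.69, 8.58, 8.80 and 8.78, and 8.77, 8.56, 8.44 and 8.64 in these 3 groups. None of the 7 cofactors tested passed, the smallest p values being those of Pknox2 with the FoxO1 label (0.45 above wild type, adjusted p = 0.580) and Meis2 with the β-catenin label (0.36, adjusted p = 0.390). All 14 measured Polycomb and Trithorax regulators, which keep Hox genes silent or active, were above background in all arrays, and 0 of 14 passed. Eed, a Polycomb subunit, had the smallest p at 0.25 lower in β-catenin-labelled than in FoxO1-labelled arrays (adjusted p = 0.521). Ring1, another Polycomb subunit, came next at 0.29 above wild type with the β-catenin label (adjusted p = 0.534).

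**Figure D4:**
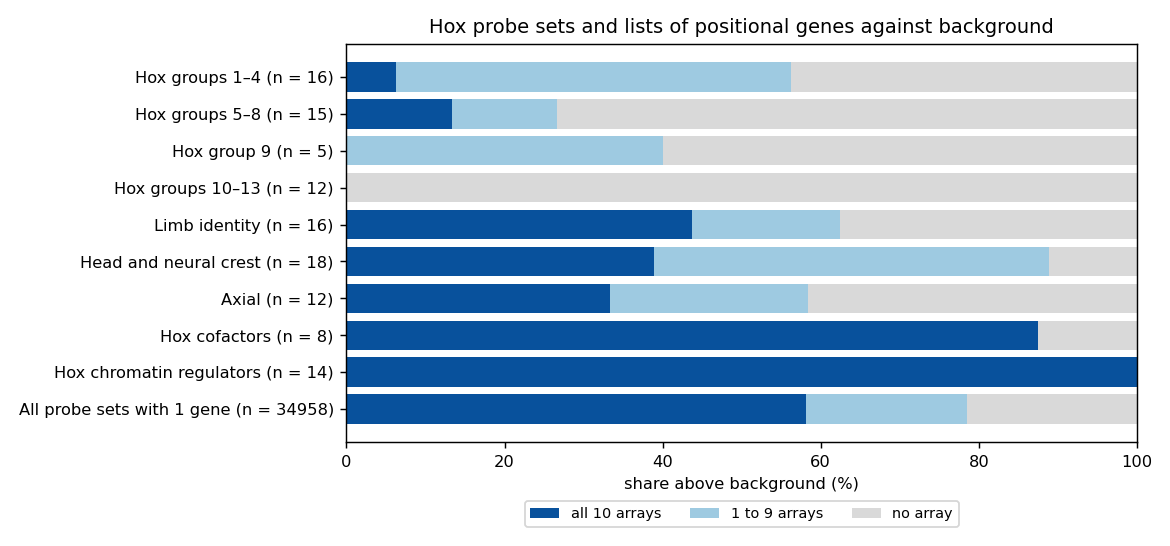
Share of probe sets (Hox) or genes (lists) above background in all 10 arrays, in some and in none; bars run from 0 to 100% and the number behind each stands in brackets. Chromatin regulators are above background throughout. Of Hox probe sets, 7 of 16 in groups 1 to 4 are above it in no array. For groups 5 to 8, 9 and 10 to 13 these are 11 of 15, 3 of 5 and 12 of 12.

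The plot of shares sets Hox probe sets beside lists of other positional genes. Of 16 measured limb genes, 7 were above background in all arrays and 6 in none. The fore and hind limb selectors Tbx5, Tbx4 and Pitx1 were in none, with ranges of 2.61 to 4.23, 3.13 to 5.75 and 2.56 to 5.39, and Isl1, an early hind limb gene, was above it in 2 arrays. Lmx1b, the dorsal limb gene, was above background in all 10, reading 7.22, 6.90 and 7.5 in β-catenin-labelled, 7.30, 7.5 and 7.67 in FoxO1-labelled and 7.68, 7.22, 7.5 and 7.63 in wild-type arrays. Shox2, En1 and Alx4 were also above background in all 10 arrays. En1 and Alx4 were so only narrowly in FoxO1-labelled 3, at 6.01 and 5.96 against a limit of 5.955. Neither of them reached the signal filter used for testing. The second probe sets of Lmx1b and Shox2 were above background in 2 and 3 arrays. These genes are used outside the limb as well, among other places in the skull.

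Of 18 measured head and neural crest genes, 7 were above background in all arrays (Dlx5, Dlx6, Msx1, Msx2, Alx1, Lhx6 and Six2), 9 in some and 2 in none. Otx2, the forebrain gene, was above it in 1. Second probe sets of Msx2, Alx1 and Lhx6 exceeded background in 4, 7 and 1 arrays. Dlx5, which patterns the jaw and also drives osteoblast differentiation, read 11.54, 10.62 and 10.98 in β-catenin-labelled, 10.77, 11.22 and 10.94 in FoxO1-labelled and 10.98, 11.06, 10.94 and 11 in wild-type arrays. Alx1, a gene of frontonasal crest, read 8.43, 8.13 and 9.39 in β-catenin-labelled, 8.45, 8.65 and 8.91 in FoxO1-labelled and 9.97, 9.86, 8.99 and 9.03 in wild-type arrays. Wild type 1 and 2 stood above wild type 3 and 4. Alx1 differed from wild type by -0.81 ± 0.31 with the β-catenin label (adjusted p = 0.330) and by -0.79 ± 0.31 with the FoxO1 label (adjusted p = 0.589). Six2 differed by -0.41 ± 0.13 with the β-catenin label (adjusted p = 0.203). None of the 6 head genes tested passed in any comparison.

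Of 12 measured axial genes, Pax1, Meox1, Meox2 and Tbx18 were above background in all arrays and 5 in none, among them Pax9, a partner of Pax1 in the vertebral column. Pax1 (1449359_at) read 8.11, 8.09 and 8.24 in β-catenin-labelled, 8.45, 8.13 and 8.03 in FoxO1-labelled and 7.47, 6.95, 7.53 and 7.58 in wild-type arrays, with no overlap against wild type in either comparison. Its second probe set was above background in 4 arrays. It was 0.76 ± 0.18 above wild type with the β-catenin label (adjusted p = 0.101) and 0.82 ± 0.18 with the FoxO1 label (adjusted p = 0.348), and neither passed. Chondrocyte marker averages, given above, were likewise higher in both labelled groups than in wild type, and their part in the Pax1 values was not tested. Tbx18 was 0.41 below wild type with the FoxO1 label (adjusted p = 0.573). None of the 4 axial genes tested passed in any comparison.

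Irx3, an Iroquois gene of limb and neural patterning, was the single gene of the 5 positional lists to pass. Tested were 7 cofactors, 5 limb, 6 head and 4 axial genes and 14 chromatin regulators. Over all probe sets tested, 0.507% passed between β-catenin-labelled and wild-type arrays and 0.442% between β-catenin-labelled and FoxO1-labelled arrays. Irx3 read 12.17, 12.03 and 12.39 in β-catenin-labelled arrays, 11.29, 11.65 and 11.46 in FoxO1-labelled arrays and 11.67, 11.64, 11.63 and 11.45 in wild types. All β-catenin-labelled arrays lay above all others, as the plot of other positional genes shows. Irx3 rose 1.51-fold in β-catenin-labelled over wild-type arrays (log2 difference 0.60 ± 0.11, limma adjusted p = 0.0370) and was 1.66-fold higher than in FoxO1-labelled arrays (0.73 ± 0.12, adjusted p = 0.0190). FoxO1-labelled minus wild-type arrays gave -0.13 (adjusted p = 0.793). Endothelial markers (6 of 6 above background in every array, 0 past the test) averaged 9.77 to 9.82 in β-catenin-labelled, 9.47 to 9.61 in FoxO1-labelled and 9.40 to 9.51 in wild-type arrays. Of the 6, the β-catenin-labelled mean was above wild type in 6, with a median difference of 0.38 and 4 at an unadjusted p under 0.05, and above FoxO1-labelled in 5, with 3 at that level. Among 7 fibroblast markers 1, Thy1, rose with the β-catenin label over wild type (1.88-fold, limma adjusted p = 0.0415). The part of these markers in the Irx3 values was not tested. The rise over wild type lost its call without any of the 4 wild types or without β-catenin-labelled 1 or 3 (adjusted p 0.0961 to 0.118), with a term for Xist signal (0.179), and with each similar wild-type pair averaged (0.378). The difference from FoxO1-labelled arrays lost it without β-catenin-labelled 1 or 3 or FoxO1-labelled 1 or 3 (0.054 to 0.0918), with the Xist term (0.245) and with the pairs averaged (0.0628). Irx5, its neighbour in the Iroquois cluster, read 11.92, 11.72 and 11.79 in β-catenin-labelled, 11.30, 11.38 and 11.42 in FoxO1-labelled and 11.55, 11.49, 11.22 and 11.22 in wild-type arrays. Its differences were 0.44 ± 0.10 from wild type (adjusted p = 0.0908) and 0.44 ± 0.11 from FoxO1-labelled arrays (adjusted p = 0.164), and neither passed.

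**Figure D5:**
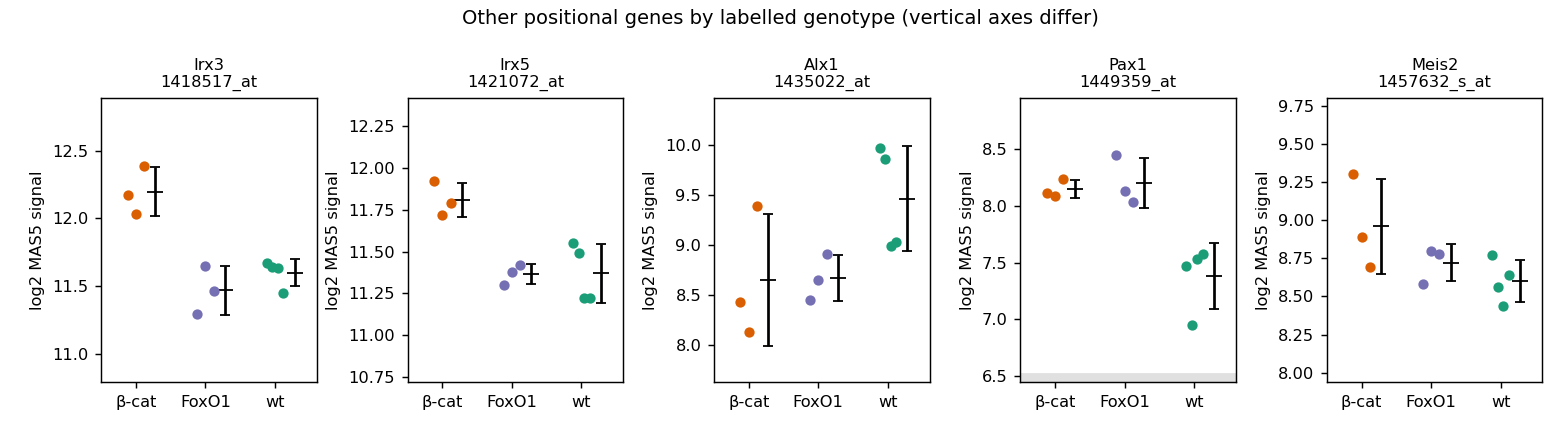
Log2 MAS5 signal of other positional genes by group (β-catenin-labelled, FoxO1-labelled, wild type); points are arrays, bars the group mean with SD, and the vertical axes differ. The β-catenin-labelled arrays of Irx3, 12.03 to 12.39, lie above all other arrays, and wild type holds the lowest 4 Pax1 values.

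The skeletal site of the samples was not tested, since neither a labelled site nor arrays of known sites were among the samples.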

How the data were processed

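Gene expression of 10 osteoblast samples was measured on Affymetrix mouse arrays and per the labels' protocol biotin-marked cRNA was made from 500 ng of total RNA. Values in the deposited table are log2 signal, and the submitters' processing notes name MAS5 with no version. The log base follows from the values (-3.86 to 15.86), whose linear trimmed mean is near 500 in each array. Array medians ran from 7.02 to 7.22, no detection calls were used, and precision is limited by how few arrays there are. Of 45101 probe sets, 34958 had 1 gene in the platform annotation, 932 several and 9211 none listed; 99.4% of the first were found by gene ID in the RefSeq table of GRCm38.p6.

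Probe sets with 1 gene whose third-highest value exceeded 7.15 were kept (20127). limma 3.58.1 in R 4.3.3 fitted 1 mean per group over all 10 arrays, with a trended eBayes prior, two-sided, and Benjamini-Hochberg adjustment over the 20127, at 0.05. Differences are log2 ± SE and folds are 2 to that power. On simulated data for β-catenin-labelled against wild-type arrays over the 20127 probe sets, 72% of changes of 1 and 95.4% of changes of 2 on the log2 scale were recovered, with 6.17% false calls. The simulated noise was independent between arrays, unlike the similar wild-type pairs. These shares are averages over probe sets drawn at random, so they do not give the share recovered for Hox probe sets near background.

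Named were the Hox genes with the highest mean per cluster (a rule for naming, not a ranking of levels), the tested Hox genes with the smallest p, groups 10 to 13, and of each list the genes that passed, the 2 with the smallest p and preset genes. Hoxa2, Hoxa5, Hoxa9, Hoxb3, Hoxd9 and other Hox genes, and the promoter motifs, were chosen after their values were seen. The members and lists were chosen with earlier results of these data known. Alternatives were other background limits, filters and scalings, 16 added on the linear scale, 1 probe set per gene, the compared groups alone, a replicate block, no variance trend, array weights, a Xist term, averaged wild-type pairs, and leaving out each array.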

Additional observations from a re-analysis of the deposited data

Results flagged for a closer look

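Among 116 probe sets of Hox and other positional genes, 8 had 1 wild-type array whose gap to the nearest of the other three, as a share of the range of all 4, exceeded Dixon's critical value at the 95% level. By the level of that test, chance flags about 1 in 20 such groups. Wild type 1 was the far array for Hoxd13 (1422239_at, 2.07), Fgf8 (1451882_a_at, 4.64) and Lhx8 (1427300_at, 0.47). Wild type 2 was it for Hoxa10 (1431475_a_at, 1.23). Wild type 3 was it for Hoxc13 (1425874_at, 2.40), Hoxb3 (1427605_at, 6.34) and Hoxa3 (1452421_at, 7.42), and wild type 4 for Tbx5 (1425695_at, 2.67). Of the 8 values, those of Hoxb3 and Hoxa3 exceeded the array's background limit. Among the antisense probe sets left out of the comparisons, Hoxd3os1 (1460056_at) was above background in all 10 arrays. It read 6.88, 6.78 and 6.39 in β-catenin-labelled arrays, 7.25, 6.94 and 7.0 in FoxO1-labelled arrays and 6.15, 6.68, 6.47 and 6.38 in wild types. The FoxO1-labelled arrays, the lowest at 6.94, lay above all wild types, and this difference was not tested.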

How the results depend on the processing

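The 3 Hox probe sets above background in all 10 arrays became 1 (Hoxd8, 1431099_at) with the 99th percentile of the receptor probe sets or with the table's median as the limit, and 3 to 4 with an array left out. The count of Hox probe sets that passed stayed at 0 in all 3 comparisons under each setting that gave a value; a stricter filter left no Hox probe set to test. Of the tested Hox differences, none passed under any setting, and 3 turned in direction. For Hoxd8 1431099_at, β-catenin-labelled minus wild-type arrays gave -0.10 with the Xist term, -0.017 without wild type 2, -0.02 without wild type 3 and -0.025 without β-catenin-labelled 2, with 0.14 the highest value when an array was left out. For Hoxd8 1433638_s_at it gave -0.023 without wild type 3 and -0.073 without β-catenin-labelled 2, and at most 0.48 with an array left out. For Hoxa3, FoxO1-labelled minus wild-type arrays gave 0.0997 with array weights and 0.11 without FoxO1-labelled 3, and at the lowest -0.44 with another array left out. Deviations from the group means correlated at -0.2605 to 0.1939 between same-numbered arrays of different groups. Between differently numbered ones they correlated at -0.2935 to 0.2701. These few correlations gave no sign that the numbers pair the samples, but they cannot exclude it. The replicate block left 21, 0 and 28 probe sets past the test over the whole array in β-catenin-labelled against wild-type, FoxO1-labelled against wild-type and β-catenin-labelled against FoxO1-labelled arrays, against 102, 3 and 89 without it, and gave Irx3 an adjusted p of 0.22 against wild type and 0.0939 against FoxO1-labelled arrays. In the same order of comparisons, fitting only the 2 groups gave 170, 1 and 24, averaging the similar wild-type pairs 13, 0 and 37, and leaving out 1 array 37 to 143, 0 to 8 and 32 to 79. In the first comparison each wild-type or β-catenin-labelled array left out gave 37 to 64. In the second, 0 passed without wild type 2 or FoxO1-labelled 1, 1 without wild type 1 and 8 without FoxO1-labelled 2. In the third, leaving out any β-catenin-labelled array gave 42 to 50, and FoxO1-labelled 1 gave 32. The Xist term gave 14 in the first and 0 in the third. In the second, median scaling gave 1, no variance trend 8 and array weights 72. Irx3 also lost its call against wild type with no filter (adjusted p 0.0512) and with no trend (0.0902), and against FoxO1-labelled arrays with no trend (0.0556) and with only the 2 groups (0.125). The cause of these shifts was not tested. Most Hox probe sets were above the background limit in no array, and below the limit neither a level nor a difference can be read.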
